A study of Mus musculus with 30 samples.

Results

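The 8 genes described here encode enzymes of the pentose phosphate pathway and 2 further cytosolic enzymes that make NADPH: G6pdx, Pgls, Pgd, Rpia, Tkt, Taldo1, Me1 and Idh1. The epimerase of the pathway, Rpe, is not among them. They were chosen by enzyme function, as a list of symbols, and with earlier results of these data known; no measured value or threshold enters the rule, and which values guided the choice is not recorded. Each was found by its Ensembl identifier, which gave 8 of 78258 genes in the table of the postpartum study and 8 of 56691 in that of the diet study. The tests below are those of the fit over all genes, and counts over the 8 are a description.

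All libraries came from whole mouse heart, and were 3' mRNA libraries in which a read marks the end of a transcript. The postpartum study crossed 2 genotypes with 2 states. WT mice were wild type, and S55L mice carried CHCHD10 with the p.S55L substitution. CHCHD10 is a protein of the mitochondrial intermembrane space. Naive mice were aged to 100 days. Postpartum (PP) mice were bred at 65 days and killed at postpartum day 0. In the diet study all mice were S55L and PP, and during breeding they received control chow or chow containing EH301, which is a supplement of the NAD+ precursor nicotinamide riboside with pterostilbene. The labels give neither sex, strain background, the number of mutant alleles nor whether the libraries of a group came from different mice, so a p-value here reflects the spread among libraries, which may be technical.

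As background, the oxidative branch of the pentose phosphate pathway takes glucose 6-phosphate out of glycolysis and reduces NADP+ to NADPH at 2 steps, those of G6pdx and Pgd, with the lactonase Pgls between them. The non-oxidative branch (Rpia, Tkt, Taldo1) interconverts the resulting pentose phosphates with glycolytic sugars, and can also make ribose 5-phosphate for nucleotides without the oxidative steps. NADPH keeps glutathione and thioredoxin reduced and feeds the synthesis of fatty acids, sterols and proline. In the heart, Me1 and Idh1 supply cytosolic NADPH from malate and isocitrate. Several of these genes are known targets of NRF2, the transcription factor of the oxidant response, which binds the antioxidant response element.

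The promoter windows of the 8 genes were read for that element, because the fit over all genes called 5 of the 8 higher in naive and 4 in PP mutant hearts. RefSeq (GRCm38.p6) gave 11 windows for the 8 genes, from 250 bases before to 50 after each start. The element's core, TGACNNNGC, searched on both strands, was found in the windows of 3 genes, G6pdx, Me1 and Pgd. It occurs in 12.4% of all 32851 windows, and 14% of 27025 genes have it in at least 1 window. The stretches around the 3 matches are shown 5′ to 3′ on the strand of the gene, with the match in capitals. All 3 genes lie on the minus strand.
G6pdx, chrX:74428894-74428972: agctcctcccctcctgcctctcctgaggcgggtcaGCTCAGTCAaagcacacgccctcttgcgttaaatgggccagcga
Me1, chr9:86695890-86695955: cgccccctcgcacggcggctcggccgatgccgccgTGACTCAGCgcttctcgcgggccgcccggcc
Pgd, chr4:149166058-149166114: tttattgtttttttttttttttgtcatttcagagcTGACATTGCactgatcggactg
The match of G6pdx lies 57 to 49 bases before the start and reads TGACNNNGC on the opposite strand. That of Me1 runs from 6 bases before the start to 2 after it. That of Pgd lies 3 to 11 bases after the more downstream of its 2 annotated starts. The window at the upstream start of Pgd held no match, and whether the downstream start is used in heart was not tested. That downstream start directly follows a stretch rich in T that ends in cag, the form in which introns end. Its match may therefore lie in an internal exon and not in a promoter. The windows of Taldo1, Idh1, Pgls, Rpia and Tkt held no match. Neither TGATGNAA, the core of the C/EBP-ATF composite element (3.97% of all windows), nor the E-box CACGTG (7.15%), each searched on both strands, was found in any of the 11 windows. A match is a run of letters and not evidence of binding.

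Reads on genes ranged from 1418715 to 2949993 in the WT libraries of the postpartum study and from 2755500 to 5131316 in the S55L libraries, and the share of reads on genes was 58.3% to 61.6% and 66.3% to 69.2%. In the diet study they ranged from 466651 to 3048461. Each group was deposited as 5 columns, but the columns of WT PP 1 and 2, and those of S55L PP 1 and 2, were identical and were counted once. Control diet 5 and EH301 diet 6 were identical as well and were left out, which leaves 5 libraries in each naive group and 4 in each other group. The well codes put the WT libraries in plate column 1, apart from WT PP 1 in column 2, and the S55L libraries in columns 2 and 3, so plate and genotype nearly coincide. Chchd10 itself differs by a point mutation, which a count per gene does not show, so its level does not check the genotype. Its mean was 2719 in WT naive hearts and 4501 in S55L naive hearts, in counts scaled to library size as CPM. CPM are a gene's reads per 1000000 reads on genes, with library sizes adjusted by trimmed means. The cardiomyocyte markers were abundant in every group. Of 7 neutrophil markers Ly6g, Camp, Ltf, Ngp and Retnlg were at 0 in WT naive hearts, where the 7 summed to at most 2.576 CPM.

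In mutant hearts Taldo1, Me1 and Pgd were higher than in wild-type hearts, both in naive and in PP animals. G6pdx and Idh1 were higher in naive animals. In PP animals G6pdx passed the test narrowly (edgeR, adjusted p = 0.0452), and not with the replicate number as a block (adjusted p = 0.0563). Pgls, Tkt and Rpia passed the test in neither state. In naive hearts 5 of the 8 genes rose and 0 fell, beside 21.9% of the 11945 genes tested that rose and 21.6% that fell (edgeR, adjusted p under 0.05). In PP hearts 4 rose (3 with the replicate number as a block) and 0 fell, beside 16.3% and 15.2%. The median log2 fold change of the 8 was 0.59 in naive and 0.52 in PP hearts, with all genes at -0.0039 and -0.0007. Every S55L naive library lay above every WT naive library for 5 of the 8, beside 16.8% of all genes, and every S55L PP library above every WT PP library for 2 of the 8, beside 13.7%. In whole heart, more cells of a type and more RNA per cell cannot be told apart.

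**Figure D1:**
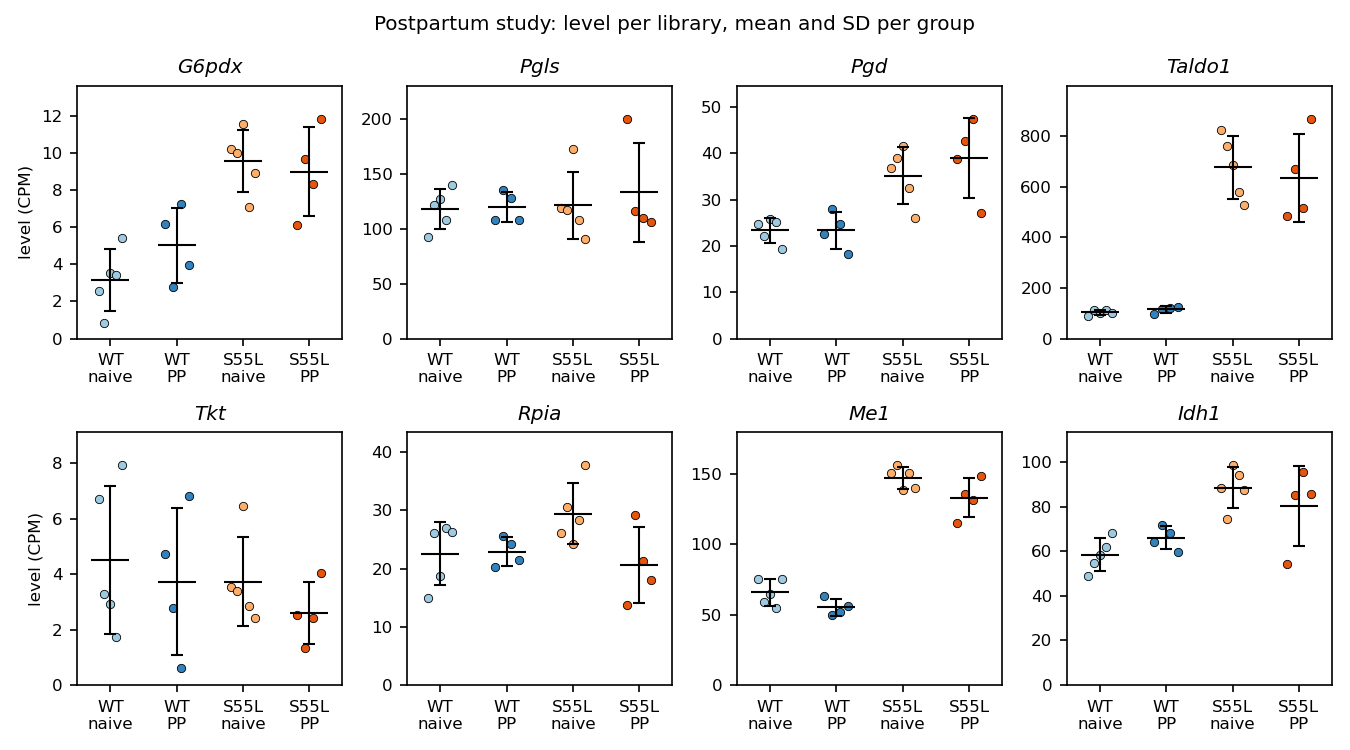
Level of each of the 8 enzyme genes in the 18 libraries of the postpartum study, in CPM on a linear axis from 0, with 1 panel per gene; points are libraries, and the bars give the mean and SD of each group. Taldo1 and Me1 separate the genotypes in both states, G6pdx, Pgd and Idh1 separate them in naive hearts, and Pgls and Tkt overlap throughout.

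Of the oxidative branch, G6pdx and Pgd were higher in mutant hearts and Pgls was level. G6pdx, whose product commits glucose 6-phosphate to the pathway, stood at 2.58, 0.817, 3.51, 3.44 and 5.44 CPM in WT naive hearts and at 10.2, 10.01, 11.6, 7.11 and 8.94 CPM in S55L naive hearts. These groups did not overlap, and they rested on 1 to 11 reads per WT library and 25 to 56 per S55L library. The log2 fold change of 1.52 (SE 0.32), a fold of 2.88 with a 95% interval of 1.84 to 4.51, passed the test (adjusted p = 0.000329). In PP hearts the WT libraries had 6.17, 2.79, 7.25 and 3.94 CPM and the S55L libraries 6.15, 9.66, 8.35 and 11.85. Here the lowest S55L library lay below 2 WT libraries. The difference was smaller, at 0.84 (SE 0.32), and close to the threshold (adjusted p = 0.0452). PP libraries of equal number departed from their group means in the same sense across genotypes, but libraries of unequal number were not compared. With the number as a block in the fit of all groups of the postpartum study, G6pdx was at 0.82 (SE 0.33). It no longer passed (adjusted p = 0.0563), which left 3 of the 8 genes called in PP hearts. Leaving out WT PP 3 or 5 or S55L PP 3, 4 or 5 also ended this call (log2 fold change 0.67 to 0.87, adjusted p = 0.0566 to 0.136). In the older annotation GENCODE M21 the 3' end of G6pdx is overlapped by Ikbkg on the other strand, and since the strand setting of the counting is not given, the share of reads from Ikbkg is uncertain. The retrogene G6pd2, a near-identical copy, was counted in only 1 to 11 reads per group of the postpartum study.

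Pgls, the lactonase between the NADPH steps, averaged 118 ± 18.2 CPM (SD, n = 5) in WT naive hearts, 120 ± 13.8 (n = 4) in WT PP hearts, 121 ± 30.6 (n = 5) in S55L naive and 133 ± 44.9 (n = 4) in S55L PP hearts. The groups overlapped throughout, and S55L PP 1, at 200.1 CPM, stood above the other 3 libraries of its group, which had 106 to 117 CPM. The log2 fold change between genotypes was 0.05 (95% interval -0.32 to 0.41) in naive and 0.15 (-0.25 to 0.56) in PP hearts. Its 3' end overlaps Fam129c on the same strand in that annotation, so reads of the 2 genes may not be separable.

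Pgd, which makes NADPH and ribulose 5-phosphate, had 24.7, 22.04, 25.7, 25.2 and 19.3 CPM in WT naive libraries and 36.9, 38.9, 41.5, 32.4 and 25.95 in S55L naive libraries. The lowest S55L library was just above the highest WT library. Its log2 fold change was 0.59 (SE 0.18, adjusted p = 0.00831). In PP hearts the values were 22.5, 27.9, 24.8 and 18.3 CPM in WT and 38.9, 42.7, 47.4 and 27.1 in S55L. Here 1 S55L library, number 5, fell into the WT range, and the other 3 lay above it. The change of 0.76 (SE 0.19) passed the test (adjusted p = 0.00331).

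Among the genes of the non-oxidative branch within the 8, Taldo1 changed most, and Tkt and Rpia did not pass the test. Taldo1, transaldolase, moves a dihydroxyacetone unit between sugar phosphates. It stood at 90.1, 113, 101, 113 and 103 CPM in WT naive hearts and at 827, 761, 685, 581.4 and 529 CPM in S55L naive hearts, so that the lowest mutant library was more than 4 times the highest wild-type library. The fitted fold was 6.52 (95% interval 5.14 to 8.26; log2 2.704, SE 0.17, adjusted p = 1.48e-12), which ranks 174 among the rises of 11945 genes. In PP hearts WT libraries had 97.6, 117, 120 and 125 CPM and S55L libraries 485, 669, 516 and 869. The spread among the mutant libraries was wider than among the wild-type ones, and the groups stayed apart. The fold was 5.53 (4.25 to 7.18; log2 2.47, SE 0.18, adjusted p = 9.24e-11), rank 183.

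Tkt, transketolase, the thiamine-dependent partner of Taldo1, had few reads in the postpartum study, for a reason that was not tested. In the diet study, counted separately, it had 46 to 95 reads in each control diet library. Its levels averaged 4.505 ± 2.66 CPM in naive WT hearts (SD, n = 5), 3.73 ± 2.65 in PP WT hearts (n = 4), 3.73 ± 1.60 in S55L naive (n = 5) and 2.58 ± 1.11 in S55L PP hearts (n = 4), from 1 to 29 reads per library. The groups overlapped. The log2 fold change was -0.31 (95% interval -1.19 to 0.56) in naive and -0.67 (-1.69 to 0.35) in PP hearts, and both intervals include 0.

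Rpia, which converts ribulose 5-phosphate to the ribose 5-phosphate of nucleotides, had 14.9, 26.1, 18.7, 27.0 and 26.2 CPM in WT naive and 26.1, 30.5, 24.3, 28.4 and 37.7 in S55L naive hearts. Of the mutant libraries 3 lay above the wild-type range and 2 within it. The log2 fold change of 0.39 (SE 0.20) did not pass (adjusted p = 0.113). It did under scaling by total counts (0.65, adjusted p = 0.00602), and without a filter on low counts as well (0.51, adjusted p = 0.042). In PP hearts the groups averaged 22.9 ± 2.44 CPM in WT and 20.6 ± 6.55 in S55L (n = 4 each), a log2 fold change of -0.14 (95% interval -0.59 to 0.32).

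The 2 cytosolic NADPH sources outside the pathway were both higher in mutant hearts, Me1 in each state. Me1, the cytosolic malic enzyme, had 75.2, 58.8, 64.9, 54.5 and 75.7 CPM in WT naive and 151, 156, 139, 151 and 140 CPM in S55L naive hearts. The mutant libraries were close together and well above the wild-type range. The fold was 2.23 (95% interval 1.86 to 2.68; log2 1.16, SE 0.13, adjusted p = 4.99e-08). In PP hearts the values were 63.1, 49.7, 51.9 and 56.3 CPM in WT and 115, 136, 132 and 149 in S55L. The groups again did not overlap. The fold was 2.40 (1.95 to 2.94; log2 1.26, SE 0.14, adjusted p = 1.25e-07).

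Idh1, the cytosolic and peroxisomal isocitrate dehydrogenase, had 48.9, 54.7, 58.5, 61.9 and 68.3 CPM in WT naive and 88.6, 74.3, 98.6, 94.1 and 87.4 in S55L naive hearts. All mutant libraries lay above all wild-type ones, and the difference of 0.60 on the log2 scale (SE 0.15) passed the test (adjusted p = 0.00178). In PP hearts WT libraries had 64.2, 72.0, 68.2 and 59.9 CPM and S55L libraries 54.2, 85.1, 95.6 and 85.7. S55L PP 1 was the lowest of the 8 libraries, and the other 3 mutant libraries lay above all wild-type ones. The difference was 0.28 (SE 0.16) and did not pass the test (adjusted p = 0.192); without S55L PP 1 it was 0.43 (adjusted p = 0.0266), and under scaling by total counts 0.55 (adjusted p = 0.0057). The difference between the states, tested as an interaction, was -0.31 (SE 0.22, adjusted p = 0.997).

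**Figure D2:**
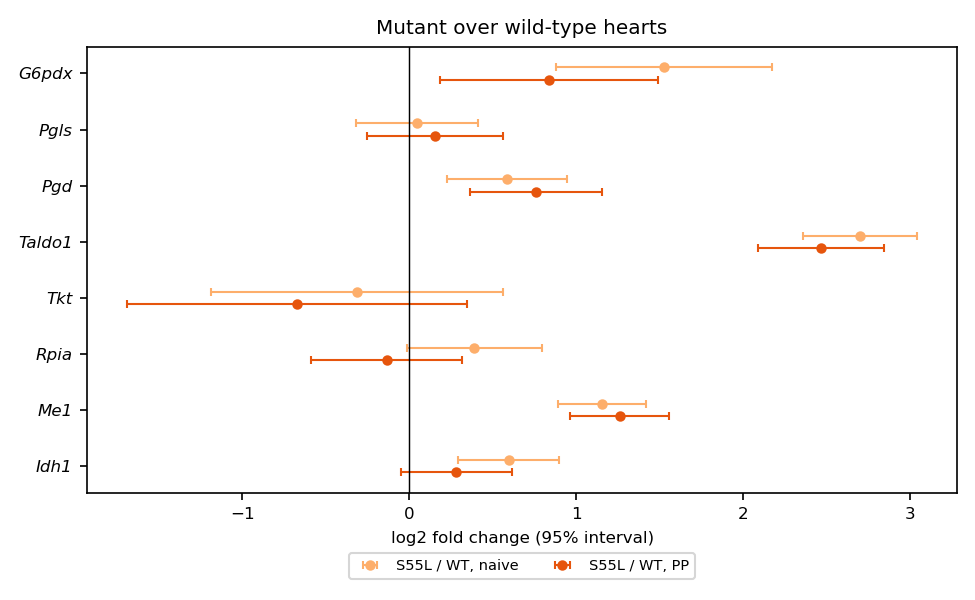
Log2 fold change of S55L over WT for the 8 genes in naive and in PP hearts, from the fit over all genes, with 95% intervals; the vertical line marks no change. Taldo1 stands at 2.704 and 2.47 and Me1 at 1.16 and 1.26, while the intervals of Pgls, Tkt and Rpia cross 0 in both states.

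Within a plate column, the genotypes can be compared only through WT PP 1, the single wild-type library in plate column 2. It is a PP library, and 5 of the 6 mutant libraries of that column are naive, so state differs as well and no test is possible. Taldo1 had 97.6 CPM there and 529 to 869 in the 6 mutant libraries of that column. Me1 had 63.1 against 139 to 156 CPM, Idh1 64.2 against 74.3 to 98.6, Pgd 22.5 against 25.95 to 41.5 and G6pdx 6.17 against 7.11 to 11.85. Pgls had 108 CPM against 90.7 to 172, Tkt 4.72 against 2.40 to 6.47 and Rpia 20.3 against 18.1 to 37.7. The wild-type library was thus the lowest of the 7 for the 5 genes called in naive hearts, and within the mutant range for the other 3. A plate term in the fit rests on WT PP 1 and S55L PP 5, the only libraries apart from the plate column of their group. It also takes the plate effect as equal in both genotypes and states, so calls under it cannot separate plate from genotype. With the plate column as a term in the fit, Taldo1 (log2 fold change 3.01 in naive, 3.15 in PP hearts) and Me1 (0.90 and 1.24) kept their calls, and G6pdx (1.09, adjusted p = 0.215), Pgd (0.64, adjusted p = 0.182) and Idh1 (0.65, adjusted p = 0.127) lost theirs in naive hearts, with estimates close to or above those without the term except for G6pdx. In PP hearts Pgd fell to 0.27 (adjusted p = 0.64) and G6pdx was at 0.94 (adjusted p = 0.267).

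Scaling by total counts instead of trimmed means moved the median of all genes to 0.24 in naive and 0.27 in PP hearts, and the numbers of genes that rose and fell to 4013 and 1481 in naive hearts (2614 and 2578 with trimmed means) and to 3458 and 977 in PP hearts. The directions given for G6pdx, Pgd, Taldo1, Me1 and Idh1 were the same with each scaling.

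Of 12 further genes of pentose phosphate metabolism, 6 were tested, and 5 rose in naive and 2 in PP hearts, while 0 fell. Among all genes 21.9% rose and 21.6% fell in naive hearts, and 16.3% and 15.2% in PP hearts. The median log2 fold change of the 6 tested genes was 0.996 in naive and 0.74 in PP hearts. Prps1 and Prps2, which turn ribose 5-phosphate into the activated ribose of nucleotide synthesis, were up by 1.47 (SE 0.31) and 0.77 (SE 0.24) in naive hearts. Dera, which splits deoxyribose 5-phosphate, rose by 1.41 in naive and 1.10 in PP hearts. Rpe, the epimerase of the non-oxidative branch, rose by 1.17 in naive hearts (edgeR, adjusted p = 0.0397). In PP hearts it was at 0.71 and did not pass (adjusted p = 0.234). Tigar, a phosphatase that lowers fructose 2,6-bisphosphate and so favours the pathway, rose by 0.82 (adjusted p = 1.1e-05) and 0.76 (adjusted p = 0.000144). H6pd, the enzyme that carries out the oxidative steps inside the endoplasmic reticulum, was at 0.21 in both states and did not pass (adjusted p = 0.432 and 0.521).

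Of 12 tested genes of other NADPH sources and related enzymes, 5 rose and 2 fell in each state. Among all genes 21.9% rose and 21.6% fell in naive hearts, and 16.3% and 15.2% in PP hearts. Not all of the 12 encode enzymes that make NADPH: Mthfd1l and the kinases Nadk and Nadk2 do not, and Mthfd2 and Me2 work chiefly with NAD+. The counts are therefore not counts of NADPH-making enzymes. The risers were led by mitochondrial folate enzymes: Mthfd2 from 2.635 to 326 CPM in naive hearts (log2 fold change 6.97, SE 0.28), Mthfd1l (4.32) and Aldh1l2 (2.79), which releases NADPH from formyl tetrahydrofolate. Both genes that fell are mitochondrial. Me3, the mitochondrial NADP-dependent malic enzyme, fell by 1.56 in naive and 1.43 in PP hearts, and Nnt, the transhydrogenase of the inner membrane, fell by 1.08 and 1.31. Nnt rested on 3 to 20 reads per library and had 0 reads in the fitted libraries of the diet study. Idh2, the mitochondrial counterpart of Idh1, was at -0.38 (adjusted p = 0.0713) and -0.40 (adjusted p = 0.116). Me2 was at 0.15 (adjusted p = 0.705) in naive and rose by 1.04 (adjusted p = 0.0191) in PP hearts.

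Among the enzymes that use NADPH, 11 of 17 rose in naive and 10 in PP hearts, and 0 fell. The shares of all genes were 21.9% that rose and 21.6% that fell in naive hearts, and 16.3% and 15.2% in PP hearts. Nqo1, a quinone reductase, rose by 2.63 and 2.96, and Blvrb, a biliverdin reductase, by 2.85 and 2.81. Gsr, glutathione reductase, rose from 7.35 to 46.6 CPM in naive hearts (2.67) and by 2.07 in PP hearts, and Txnrd1, cytosolic thioredoxin reductase, by 2.21 and 2.47. Aldh18a1 and Pycr1, at the start and end of proline synthesis from glutamate, rose by 3.99 and 4.41 in naive and by 2.98 and 3.62 in PP hearts. Fasn, fatty acid synthase, was at 0.36 (adjusted p = 0.142) in naive and 0.20 (adjusted p = 0.51) in PP hearts.

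Of 20 tested genes of NRF2 and its other targets, 15 rose and 1 fell in naive hearts, and 14 rose and 0 fell in PP hearts. The 1 gene that fell was Keap1, which encodes the repressor of NRF2 (-0.55, edgeR, adjusted p = 0.0201). The background for this list and the stress response list is 21.9% of all genes that rose and 21.6% that fell in naive hearts. In PP hearts it is 16.3% and 15.2%. Srxn1, sulfiredoxin, went from 11.1 to 211 CPM in naive hearts (4.23), Gclm, the modifier subunit of glutathione synthesis, rose by 2.72 and Gstm1, a glutathione transferase, by 2.42. The transcript of NRF2 itself, Nfe2l2, was at -0.01 (adjusted p = 0.977) in naive and 0.16 (adjusted p = 0.612) in PP hearts. Nqo1, Gsr and Txnrd1 stand on this list and on the list of NADPH users. Of 9 tested genes of the integrated stress response, 9 rose in each state, among them Atf4 by 2.68 and 2.02, and Asns, asparagine synthetase, by 6.40 and 5.28.

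Upstream of the pathway, 7 of 15 tested genes of glucose uptake and the upper glycolytic arm rose and 4 fell in naive hearts, and 5 rose and 4 fell in PP hearts. Beside them stand 21.9% of all genes that rose and 21.6% that fell in naive hearts, and 16.3% and 15.2% in PP hearts. Slc2a1, the basal glucose transporter, rose by 1.89 and 1.59, while Slc2a4, the insulin-responsive one, fell by 1.22 and 1.61. Hk1 rose by 1.55 and 1.26, and Hk2 fell by 0.70 and 0.73. Among phosphofructokinase genes the platelet form Pfkp rose by 2.61 in naive hearts and the muscle form Pfkm fell by 0.71. Pfkfb1 fell from 17.6 to 0.916 CPM in naive hearts (-4.20).

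**Figure D3:**
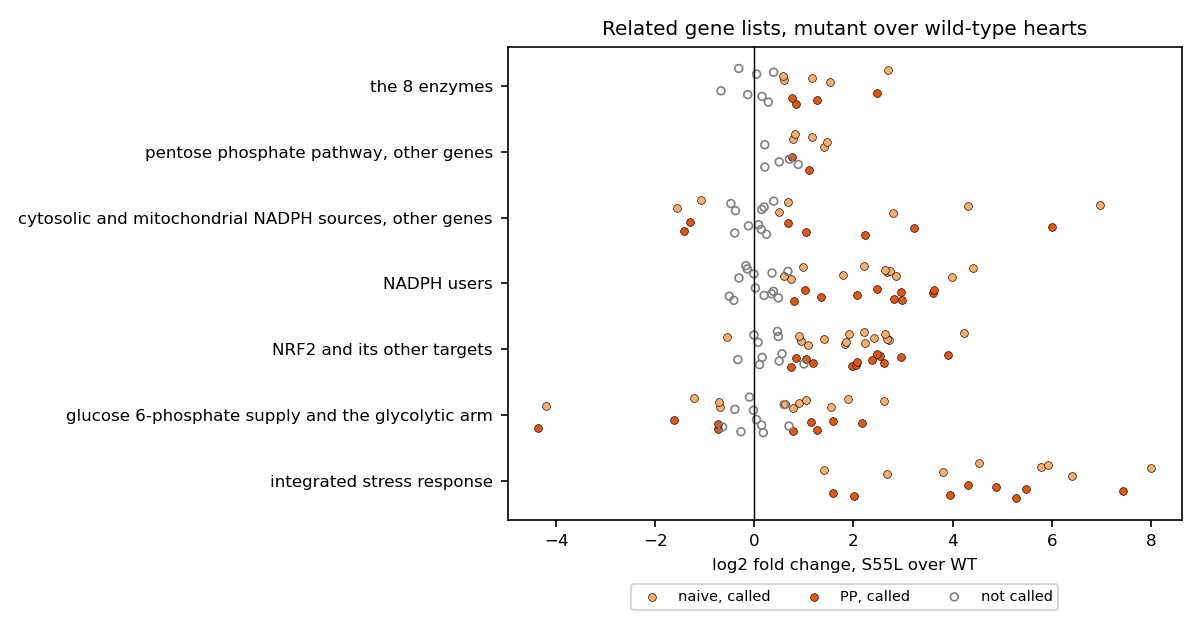
Log2 fold change of S55L over WT for the 8 enzymes and for the tested genes of 6 related lists; each point is a gene, filled where the fit called it (light orange naive, dark orange PP) and open where it did not. Genes with no reads in a wild-type group are left out. The stress response list is shifted to the right as a whole, whereas NADPH sources and glucose supply hold called genes on both sides of 0.

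Markers of several cell types of the heart moved with genotype too. Their counts stand beside 21.9% of all genes that rose and 21.6% that fell in naive hearts, and 16.3% and 15.2% in PP hearts. Of 12 macrophage markers, 12 rose in naive and 10 in PP hearts, and their summed level was 312 to 388 CPM in naive WT libraries and 436 to 545 in PP ones, against 1635 to 1982 in naive mutant libraries and 1446 to 2599 in PP mutant ones. Of 10 cardiomyocyte markers 9 fell in each state, with sums of 74360 to 100600 CPM in naive WT libraries and 74190 to 97320 in PP ones, against 44230 to 61300 in naive mutant libraries and 36950 to 49080 in PP mutant ones. Of 10 fibroblast markers 5 rose in naive and 6 in PP hearts. Of 3 tested adipocyte markers 2 fell in naive and 1 in PP hearts, and the sum over the 8 listed was 310 to 383 CPM in WT naive and 155 to 209 in S55L naive libraries. Of 9 tested endothelial markers 4 fell in naive and 2 in PP hearts, with 0 that rose. Of 8 tested smooth muscle and pericyte markers 1 rose and 6 fell in naive hearts, and 1 rose and 4 fell in PP hearts, while their summed level was 651 to 825 CPM in WT naive and 1550 to 3557 in S55L naive libraries. Of 6 tested erythroid markers 3 fell in naive and 0 in PP hearts. Neutrophil and lymphocyte markers were too low to test in the postpartum study, and the neutrophil sum was at most 3.82 CPM in any of its libraries. The part of these cells in the changes of the 8 genes was not tested.

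None of the 8 genes passed the test between PP and naive hearts of either genotype. In WT hearts edgeR called 0 of the 8 and 2 of 11945 genes, or 0.0167%; at an unadjusted p under 0.05 it found 0 of the 8 and 756 genes, and DESeq2 called 0 of the 8 and 8 genes. G6pdx had the largest estimate, with a mean of 3.16 ± 1.68 CPM in naive and 5.04 ± 2.03 in PP wild-type hearts (SD, n = 5 and 4) and a log2 fold change of 0.59 (95% interval -0.19 to 1.37). Me1 was at -0.25 (-0.54 to 0.04). Taldo1 was at 0.14, with an interval of -0.21 to 0.50 that excludes a change of the size seen between genotypes.

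In S55L hearts edgeR called 0 of the 8 and 0 of all genes (0%); an unadjusted p under 0.05 was found for 1 of the 8 and 747 genes, and DESeq2 called 0 of the 8 and 18 genes. The 1 gene was Rpia, which averaged 29.4 ± 5.21 CPM in naive and 20.6 ± 6.55 in PP mutant hearts (SD, n = 5 and 4). Of the PP libraries, number 3 at 29.2 CPM lay within the naive range of 24.3 to 37.7, and the other 3, at 13.7 to 21.3 CPM, lay below it. The change was -0.51 on the log2 scale (95% interval -0.91 to -0.10, adjusted p = 0.719). Tkt was at -0.56 (-1.46 to 0.34), and the other 6 genes were between -0.15 and 0.15.

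The interaction of genotype and state was called by edgeR for 0 of the 8 and for 0 of all genes (0%), with an unadjusted p under 0.05 for 0 of the 8 and 444 genes; DESeq2 called 0 of the 8 and 1 gene. The estimates ran from -0.69 (SE 0.46) for G6pdx and -0.52 (SE 0.30) for Rpia to 0.17 (SE 0.26) for Pgd. The smaller difference of G6pdx between genotypes in PP than in naive hearts was therefore not shown to differ between the states.

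**Figure D4:**
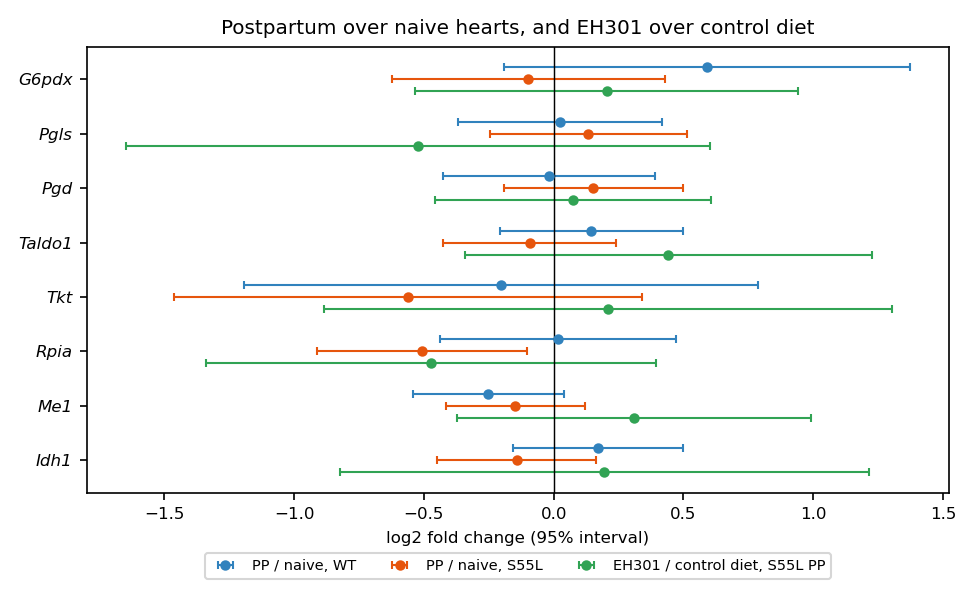
Log2 fold change with 95% interval for each gene between PP and naive hearts of WT and of S55L mice, and between the EH301 and control diets in S55L PP mice. All intervals include 0 except that of Rpia in S55L hearts, -0.91 to -0.10, and those of the diet comparison are the widest for 7 of the 8 genes.

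In the diet study none of the 8 genes differed between EH301 and control diet beyond the spread of the libraries. edgeR called 0 of the 8 and 0 of 10335 genes (0%), with an unadjusted p under 0.05 for 0 of the 8 and 137 genes, and DESeq2 called 0 of the 8 and 0 of all genes. Apart from the read numbers of Tkt and Nnt, levels of this study are not set against those of the postpartum study, since the tables were counted separately. The median log2 fold change of the 8 was 0.20, beside 0.02 for all genes. The control diet libraries lay in plate columns 1 and 2 and the EH301 libraries in column 3, so plate and diet cannot be told apart.

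Taldo1, the gene that differed most between genotypes, had 140, 407, 453 and 357 CPM on the control diet and 374, 562, 578.3 and 343 on EH301. Control diet 1, the library with 466651 reads on genes, was the lowest of the 8, and the remaining values overlapped. The change was 0.44 on the log2 scale (95% interval -0.34 to 1.23), and it was 0.08 without the libraries under 1200000 reads (control diet 1 and EH301 diet 8).

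Me1 had 33.4, 48.3, 52.9 and 33.8 CPM on the control diet and 68.5, 29.2, 74.5 and 37.6 on EH301. EH301 libraries 7 and 9 lay above all control libraries and number 8 below them, which gave 0.31 (-0.37 to 0.99). Idh1 had 0, 18.5, 25.3 and 15.0 CPM on the control diet and 24.9, 7.78, 28.0 and 14.2 on EH301. The value of 0 again came from the shallow control diet 1, where a count of 0 allows up to 6.67 CPM (3 reads), counting error only, and the change was 0.20 (-0.82 to 1.21).

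In the oxidative branch, G6pdx had 15.6, 10.6, 13.0 and 18.4 CPM on the control diet and 21.8, 23.4, 8.60 and 13.8 on EH301. These overlapped, with a log2 fold change of 0.20 (95% interval -0.53 to 0.94). Pgd averaged 61.3 ± 8.49 CPM on the control diet and 66.0 ± 18.5 on EH301 (SD, n = 4 each), a change of 0.07 (-0.46 to 0.61), the narrowest interval of the 8. Pgls had 660.6, 142, 125 and 190 CPM on the control diet and 125, 326, 143 and 173 on EH301. The shallow libraries, control diet 1 and EH301 diet 8, were the highest of their diets, and without them the change went from -0.52 to -0.06.

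Tkt and Rpia, the remaining genes of the 8, showed the same libraries on top. Tkt had 102.3, 25.7, 25.3 and 35.6 CPM on the control diet and 26.3, 97.3, 30.6 and 47.7 on EH301, a change of 0.21 (95% interval -0.88 to 1.30). Rpia had 55.6, 17.4, 12.6 and 18.8 CPM on the control diet and 14.5, 21.4, 13.4 and 15.3 on EH301, a change of -0.47 (-1.34 to 0.39). Without control diet 1 and EH301 diet 8 the changes were 0.26 for Tkt and -0.19 for Rpia. Macrophage markers summed to 2259 to 4379 CPM on the control diet and 1668 to 5418 on EH301, and 0 of the 12 were called.

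**Figure D5:**
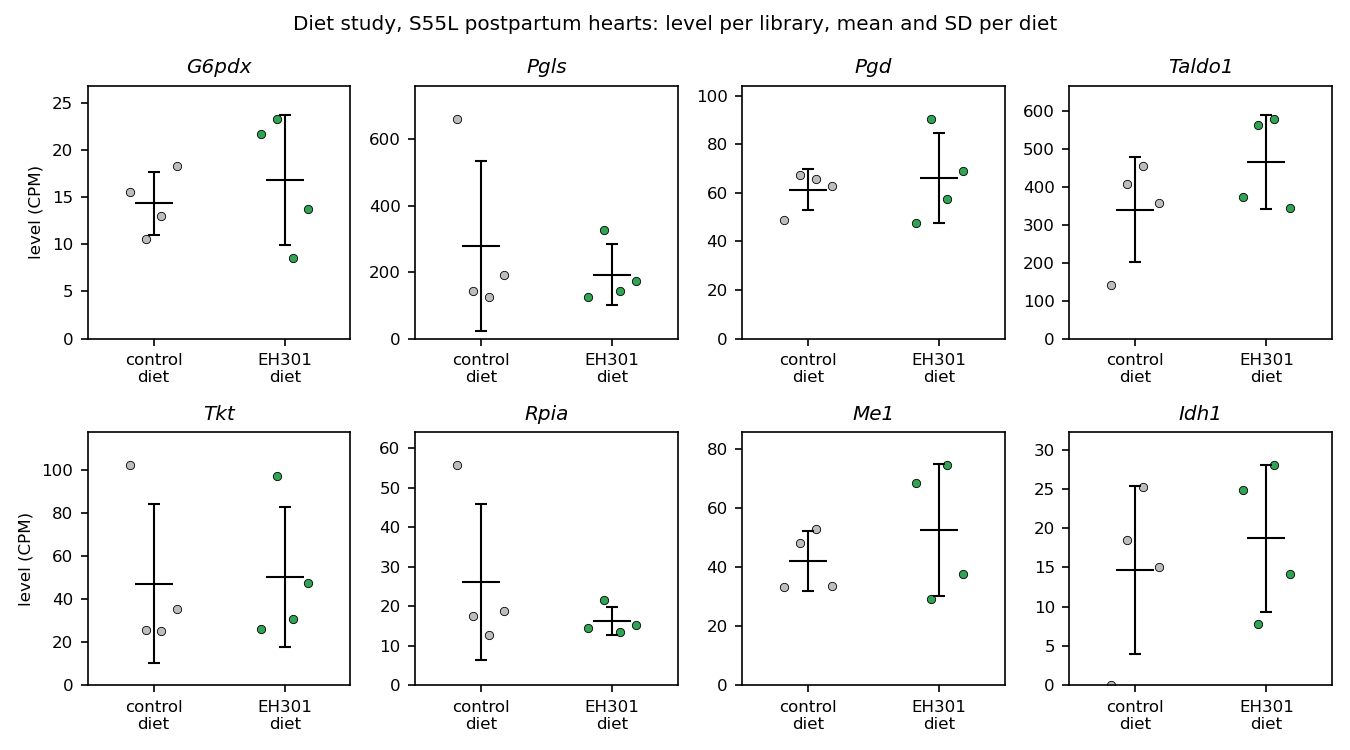
Level of each of the 8 genes in the 8 libraries of the diet study that were used, in CPM on a linear axis from 0; points are libraries in the order of their numbers, and bars give the mean and SD of each diet (n = 4). The diets overlap for every gene, and the leftmost control library, the one with the fewest reads, is the highest for Pgls, Tkt and Rpia and the lowest for Taldo1 and Idh1.

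Across the 18 libraries of the postpartum study the 8 genes fell into those that follow genotype and those that do not. Taldo1 and Me1 had a Pearson r of 0.949 on log2 CPM over all libraries, and of 0.107 once each group's mean was removed, so that their shared pattern lay between the groups. Me1 and G6pdx had 0.757 over all and 0.464 within groups. Rpia and Idh1 had 0.525 and 0.535, and Tkt and Me1 0.0358 and 0.572. The points share libraries, and with them depth and genotype. The gene outside the list whose pattern was most like that of Taldo1, out of genes that averaged 10 CPM or more, was Gbe1, the glycogen branching enzyme (r = 0.994, 18 libraries). For Me1 it was Gas5 (0.977), for G6pdx Man2b1 (0.928), for Idh1 Sgpp1 (0.924) and for Pgd Lrp1 (0.907). The best likeness of the 3 genes without a call was lower, with Wdr33 for Rpia (0.846), Dlgap4 for Pgls (0.814) and Rps9 for Tkt (0.793).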

How the data were processed

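Counts per gene were deposited by the authors for 30 samples in 2 tables. Per the submitters' processing notes, Trimmomatic 0.39, STAR 2.7.0f, HTSeq 0.6.1 and DESeq2 3.21 were used with build GRCm39.p6; annotation release, strand setting and HTSeq mode are not given in the sources used here, so overlapping and near-identical genes are uncertain. Symbols were matched by Ensembl ID through GENCODE M21 (GRCm38), which covers 51487 and 52073 identifiers and 99.4% and 99.8% of reads on genes. HTSeq summary lines were left out of library sizes: reads on several places were 17.5% to 27.3% (postpartum) and 35.2% to 39.1% (diet), on several genes 4.45% to 7.08% and 1.97% to 2.50%, and outside genes 5.65% to 10.1% and 1.43% to 1.74%.

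Identical columns of a group were used once, and a column under both diets was left out, so 18 and 8 libraries were fitted, each table on its own. Genes were filtered with filterByExpr, scaled by TMM and tested with edgeR 4.0.16 (quasi-likelihood, robust; R 4.3.3), with Benjamini-Hochberg adjustment over all genes and a threshold of 0.05. All 8 genes passed the filter in both tables. SE is the absolute log2 fold change over the root of the F statistic. CPM use the scaled library sizes. The common coefficient of variation was 0.199 and 0.299. The code was tested on simulated data.

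The genes and lists were chosen with earlier results of these data known. All 8 genes were named throughout, from each list up to 4 called genes of lowest adjusted p, and a set panel (Chchd10, Idh2, Nnt, H6pd, Me2, Me3, Gsr, Txnrd1, Nqo1, Nfe2l2, Tigar). Fasn, Hk2, Pfkm, Keap1, Rpe, and Pycr1, Atf4 and Slc2a4 in some comparisons, were added after their values were seen. Alternatives were DESeq2 1.42.0 as scaling and as test, total counts, no filter, removal of mitochondrially encoded genes, all deposited columns, plate column, replicate block, low-depth libraries and each library left out.

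The title numbers were checked as a pairing: libraries of WT PP and S55L PP that share a number departed from their group means in the same sense (r = 0.119 to 0.333 over 4 pairs). Same-numbered libraries of WT PP and S55L naive gave r = 0.0286 to 0.2288 over 4 pairs. Libraries of unequal number were not compared, so a pairing particular to the PP groups is not shown. The number was still added as a block to the fit of all groups of the postpartum study. No fit of the PP pairs alone was made. With the block 3 of the 8 genes were called in PP hearts. What the numbers mean is not stated in the labels.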

Additional observations from a re-analysis of the deposited data

Results flagged for a closer look

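Of 48 sets of 4 or 5 libraries (8 genes in 6 groups), 5 held a library whose gap to the nearest other exceeded Dixon's 95% limit, and chance flags about 1 in 20. Pgls was highest in S55L PP 1, at 200.1 CPM, with a gap of 0.887 of the group's range (limit 0.829). Tkt was highest in S55L naive 3, at 6.466 CPM, with 0.718 (limit 0.71). The other 3 were in 1 library, control diet 1, which had the fewest reads on genes, 466651: Pgls at 660.6 CPM (0.88), Tkt at 102.3 CPM (0.866) and Rpia at 55.6 CPM (0.858). The causes were not tested.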

How the results depend on the processing

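Of 888 recomputed gene values, 872 kept their direction where called and their side of the threshold, 12 lost a call, 4 gained one and none of the called values changed sign. With the plate column as a term, which rests on WT PP 1 and S55L PP 5, 2 of the 8 genes were called in each state. Over all genes 2873 (naive) and 2108 (PP) were called between genotypes. Between PP and naive WT hearts 21 genes were called without a filter, 8 by DESeq2 and 21 with the plate column; between PP and naive S55L hearts 3 with total counts, 37 without a filter, 18 by DESeq2, 10 with all deposited columns and 1 with the plate column; for the interaction 5 without a filter, 1 by DESeq2 and 2 with the plate column. Leaving out 1 library at a time gave 5 of the 8 genes in naive hearts throughout, 3 to 5 in PP hearts, and over all genes 2 to 10 (PP against naive, WT), 0 to 2 (S55L) and 0 to 2 (interaction). G6pdx in PP hearts was also lost with all deposited columns (0.67, adjusted p = 0.054).

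The replicate block, put into the fit of all groups of the postpartum study, ended the call of G6pdx in PP hearts (0.82, adjusted p = 0.0563). It changed no other call of the 8 genes. Outside WT PP and S55L PP the libraries were taken to share only a number, so the block is not a fit of those pairs alone. No paired analysis was possible between the diets because they share no replicate number. G6pdx and Tkt rested on 1 to 19 reads in each WT library, and control diet 1 held 466651 reads on genes.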

Other observations

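The library deposited under both diets, whose diet is therefore unknown, had 45 reads on G6pdx, 449 on Pgls, 138 on Pgd, 943 on Taldo1, 61 on Tkt, 36 on Rpia, 102 on Me1 and 37 on Idh1. Scaled to 1000000 of its 2232129 reads on genes these are 20.2, 201, 61.8, 422, 27.3, 16.1, 45.7 and 16.6. They lack the trimmed-mean adjustment of the CPM given above.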
